A study of Mus musculus with 10 samples.

Results

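The MS4A genes encode small membrane proteins that cross the membrane several times, and 8 of them were followed in tumour-associated macrophages, the macrophages that live inside a tumour. The 8 genes were Ms4a4a, Ms4a4b, Ms4a4c, Ms4a6b, Ms4a6c, Ms4a6d, Ms4a7 and Ms4a14. They were chosen by symbol, by taking the rows of each of the 10 expression tables whose symbol is one of these names. All 8 were found, each as a locus of its own with no second symbol, among the 46957 loci of a table, and all 8 passed the filter on low counts that left 12501 loci for testing.

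RNA was sequenced from macrophages sorted out of 4T1 tumours, a mouse mammary carcinoma line placed in the fat pad of the mammary gland of BALB/cJ mice. The question was how the macrophages differ after treatment with JHU083, a prodrug of the glutamine antagonist 6-diazo-5-oxo-L-norleucine. The labels assign 5 samples to vehicle (PBS) and 5 to JHU083, dosed at 1 mg/kg between day 7 and day 13. All tumours were harvested on day 14, and the sorted cells were live (7AAD-), CD45+, CD11b+ and F4/80+ and lacked CD8, Ly6C and Ly6G. Mice of both groups thus shared the strain, the tumour, the harvest day and the gate, and no allele or transgene is named. The labels do not say that the samples came from separate mice, so the p-values measure the spread between these samples, which may be in part technical. In sorted bulk RNA, fewer cells of a type and less RNA per cell cannot be told apart.

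MS4A proteins sit in the plasma membrane or in internal membranes, often beside a signalling receptor whose assembly or traffic they alter. The best known are Ms4a1, which encodes the B cell antigen CD20, and Ms4a2, which encodes the beta chain of the high-affinity IgE receptor of mast cells and basophils. In macrophages, MS4A4A is a lipid-raft protein that associates with the beta-glucan receptor dectin-1, and the human MS4A4A and MS4A6A locus is linked to the amount of soluble TREM2. Ms4a7 is widely used as a marker of differentiated tissue macrophages, and Ms4a6d has been described as a partner of Vsig4 in restraining the Nlrp3 inflammasome.

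Recovered depth lay between 11147870 and 15740700 fragments per library, so that 3 fragments correspond to 0.196 to 0.261 CPM, that is fragments scaled to a common, TMM-scaled library total; this is the level a count of 0 allows, for counting error only. The label was checked on macrophage markers, of which 13 of 13 passed the filter, with summed levels of 39374 to 51431 CPM in vehicle and 59942 to 83810.2 CPM in JHU083 samples. Apoe carried about as much of that sum as the other markers together (means 21462 and 38243 CPM), followed by Lyz2 (6979 and 10458 CPM). Of the 13, 6 were higher and 0 lower with JHU083, where 18.4% of all tested loci were higher and 18.3% lower. Tumour epithelial markers were present too, summing to 263 to 556 CPM in vehicle and 94.7 to 195 CPM in JHU083 samples, and neutrophil markers summed to 335 to 745 CPM and 169.8 to 343 CPM. Most of the neutrophil sum was Mmp9 (means 429 and 136 CPM in vehicle and JHU083). S100a8 (7.32 and 2.78 CPM) and S100a9 (16.2 and 3.61 CPM) also fell, Csf3r (58.4 and 84.5 CPM) rose, and Ly6g had at most 2 fragments in a library. A pair of loci that hold ribosomal RNA (Rn18s-rs5, Gm42418) had a listed value of 0 in samples 2, 4 and 5 of vehicle and 1 and 3 of JHU083, and together took 2.87% to 5.59% of the fragments elsewhere. JHU083 sample 3 had the lowest quality weight, 0.292. The part of these features in the results was not tested, and values within each set of libraries are given for the members that passed.

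Of the 8 genes, 4 were higher and 1 was lower with JHU083 at an adjusted p under 0.05, and 3 did not pass. Ms4a4a, Ms4a7, Ms4a14 and Ms4a6c rose, and Ms4a4c fell. Over all 12501 tested loci, 36.7% passed in either direction, 18.4% as higher and 18.3% as lower. The median log2 fold change was 0.14 over the 8 genes and 0.01 over all tested loci, and the median absolute value was 0.38 against 0.26. In 5 of the 8 genes the 2 groups did not overlap at all, as in 22.3% of all tested loci. Under scaling by library size alone the median of all loci moved by -0.081 on the log2 scale, the directions of the 5 called genes stayed as given, and the call for Ms4a6c was lost.

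**Figure D1:**
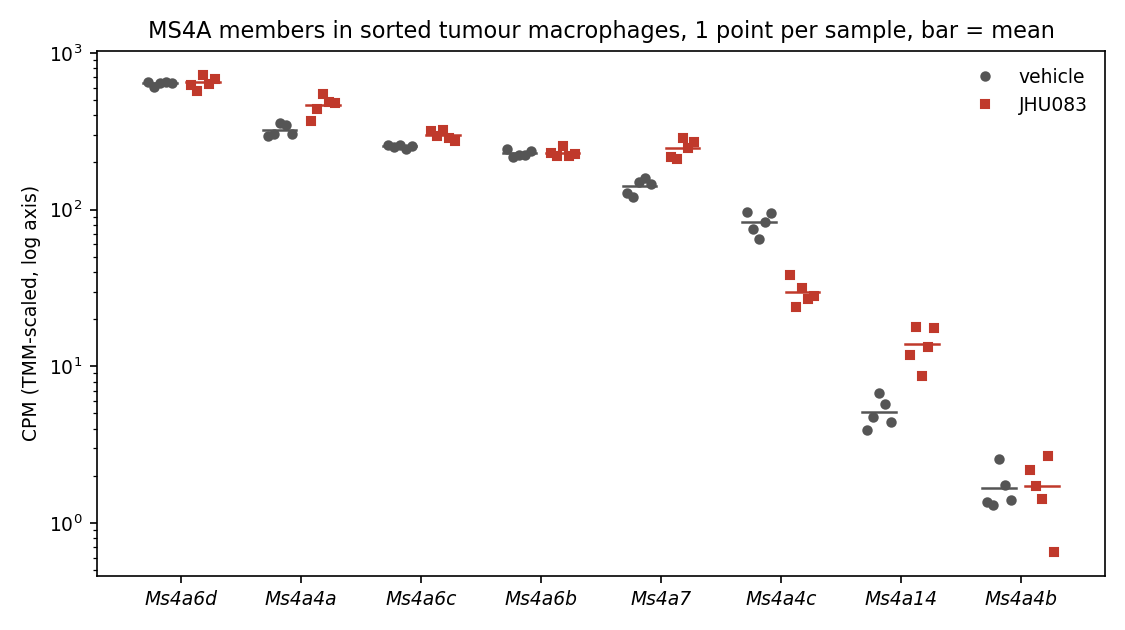
Normalised level in CPM (TMM-scaled, log axis) of the 8 genes in the 5 vehicle samples (grey circles) and the 5 JHU083 samples (red squares), with 1 point per sample and the group mean as a bar. The groups separate for Ms4a4a, Ms4a6c, Ms4a7, Ms4a4c and Ms4a14 and overlap for Ms4a6d, Ms4a6b and Ms4a4b.

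The genes lie in 1 cluster on chromosome 19, with some other genes between them. In GENCODE M21 (GRCm38) 19 genes with an Ms4a name span 10962293 to 11640851, or 679 kb, and the 8 described here occupy its distal part, all annotated as protein coding. Ms4a14 (11301249 to 11314454) and Ms4a7 (11321039 to 11336146) are on the minus strand, Ms4a4a (11375523 to 11392790), Ms4a4c (11404770 to 11427246), Ms4a4b (11443553 to 11467055), Ms4a6c (11469366 to 11482192) and Ms4a6b (11516512 to 11531256) on the plus strand, and Ms4a6d (11586604 to 11604849) again on the minus strand. Along this order the log2 fold changes were 1.45 for Ms4a14, 0.81 for Ms4a7, 0.53 for Ms4a4a, -1.48 for Ms4a4c, 0.04 for Ms4a4b, 0.24 for Ms4a6c, 0.01 for Ms4a6b and 0.02 for Ms4a6d. The 3 genes at one end of the group of 8 thus rose, their next neighbour fell, and the 2 genes at the other end did not pass the test.

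**Figure D2:**
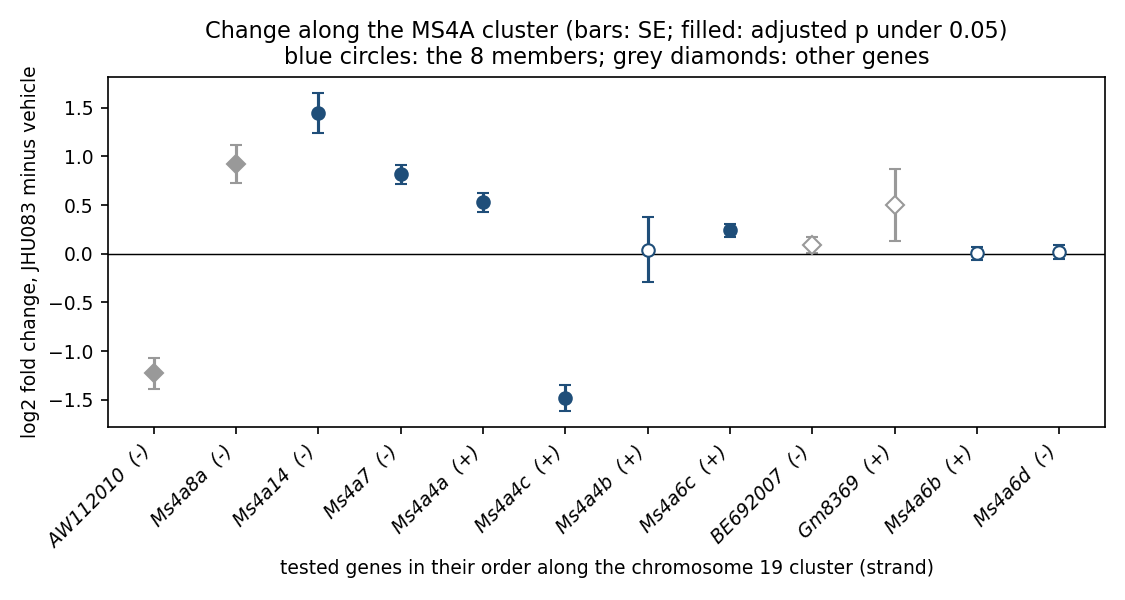
Log2 fold change of JHU083 over vehicle (vertical axis) for the 12 tested genes of the cluster in their chromosomal order (horizontal axis, strand in parentheses). Points are edgeR estimates with standard error bars, filled where the adjusted p was under 0.05, blue circles for the 8 genes and grey diamonds for others. Ms4a14, Ms4a7 and Ms4a4a lie above 0, and their neighbour Ms4a4c lies at -1.48.

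Ms4a4a (locus XLOC_017534), the dectin-1 partner, was one of the 2 most abundant members. Its level was 295, 304, 358, 345 and 306 CPM in vehicle samples 1 to 5 and 367, 438, 547, 488 and 479 CPM in JHU083 samples 1 to 5. Every JHU083 sample lay above every vehicle sample, with JHU083 sample 1 the lowest of its group and sample 3 the highest. The mean rose from 322 ± 28.04 to 464 ± 66.7 CPM (SD, n = 5 each), a ratio of 1.44, and the log2 fold change was 0.53 with a standard error of 0.10 (edgeR quasi-likelihood test, adjusted p = 0.00104). Among the 3 vehicle and 2 JHU083 samples with the ribosomal loci at 0 the log2 fold change was 0.52, but the call was lost (adjusted p = 0.0835). Among the other 2 vehicle and 3 JHU083 samples it was 0.51 (adjusted p = 0.0174).

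Ms4a7 (XLOC_018069), the macrophage marker, had 128, 119.9, 150.0, 160.2 and 145 CPM in vehicle samples 1 to 5. In JHU083 samples 1 to 5 it had 218, 212, 286, 249 and 271 CPM. The lowest JHU083 sample, sample 2, was above the highest vehicle sample, sample 4. The mean was 141 ± 16.5 CPM in vehicle and 247 ± 32.4 CPM in JHU083 samples (SD, n = 5 each), a ratio of 1.76. The log2 fold change was 0.81 with a standard error of 0.10 (edgeR, adjusted p = 4.92e-05). It was 0.83 and 0.80 within the libraries with the ribosomal loci at 0 and above 0, and it passed the test in both (adjusted p = 0.0151 and 0.00267).

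Ms4a14 (XLOC_018068), the neighbour of Ms4a7, was scarce, with 56 to 270 fragments in a library. Its level was 3.94, 4.72, 6.71, 5.74 and 4.38 CPM in vehicle samples 1 to 5 and 11.9, 17.8, 8.72, 13.3 and 17.7 CPM in JHU083 samples 1 to 5. The groups did not overlap, and the JHU083 samples were spread over a wider range, with sample 3 the lowest. The mean rose from 5.10 ± 1.12 to 13.9 ± 3.89 CPM (SD, n = 5 each), a ratio of 2.72, with a log2 fold change of 1.45 and a standard error of 0.20 (edgeR, adjusted p = 0.000129). Without JHU083 samples 1 and 3 it was 1.67, and within the libraries with the ribosomal loci at 0 and above 0 it was 1.06 and 1.61, each past the threshold (adjusted p = 0.0252 and 0.00133). With limma on log2(FPKM + 1) the Ms4a14 value was lower, at 0.94 (adjusted p = 0.000732).

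The promoter windows of these 3 genes are shown because the genes rose together. Each is 250 bases that end just before the RefSeq transcription start on GRCm38.p6, read 5′ to 3′ on the gene's own strand, for Ms4a4a chr19:11375238-11375487 on the plus strand, for Ms4a7 chr19:11336147-11336396 and for Ms4a14 chr19:11314455-11314704 on the minus strand. Capitals mark matches to the motifs searched: an interferon-stimulated response element and a STAT6 motif in Ms4a7, and an AP-1 motif in Ms4a14.
Ms4a4a: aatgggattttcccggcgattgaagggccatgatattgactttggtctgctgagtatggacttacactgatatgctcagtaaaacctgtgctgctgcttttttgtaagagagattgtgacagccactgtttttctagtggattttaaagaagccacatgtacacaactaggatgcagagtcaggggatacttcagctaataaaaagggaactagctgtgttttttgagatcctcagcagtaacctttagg
Ms4a7: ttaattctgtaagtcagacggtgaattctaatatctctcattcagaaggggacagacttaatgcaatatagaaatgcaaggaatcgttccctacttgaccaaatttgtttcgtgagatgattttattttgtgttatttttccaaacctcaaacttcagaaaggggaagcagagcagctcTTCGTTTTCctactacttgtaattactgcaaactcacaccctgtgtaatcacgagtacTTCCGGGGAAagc
Ms4a14: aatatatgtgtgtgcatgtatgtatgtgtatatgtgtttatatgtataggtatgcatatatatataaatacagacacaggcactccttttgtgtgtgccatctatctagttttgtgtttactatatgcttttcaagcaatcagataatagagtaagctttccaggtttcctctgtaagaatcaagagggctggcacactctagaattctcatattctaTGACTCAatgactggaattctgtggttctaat
In Ms4a7 the response element began 71 bases before the start, on the minus strand of the gene, and the STAT6 motif 13 bases before it. In Ms4a14 the AP-1 motif began 32 bases before the start. The Ms4a4a window held none of the motifs. It ends at 11375487, upstream of the GENCODE M21 gene start at 11375523, so RefSeq and GENCODE place that start differently. Ms4a7 and Ms4a14 had 158 identical bases of 250 when aligned, against 140 to 155 for other pairs of the 7 genes with a window, apart from Ms4a4b and Ms4a4c. For Ms4a7 only the window shown here was aligned, not the one at its other RefSeq start.

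Ms4a4c (XLOC_017535), often counted among the interferon-induced transcripts of mouse myeloid cells, was the 1 member that fell. Its level was 97.0, 75.5, 65.0, 83.5 and 95.1 CPM in vehicle samples 1 to 5 and 38.3, 23.9, 31.6, 27.0 and 28.2 CPM in JHU083 samples 1 to 5. The highest JHU083 sample, sample 1, was well below the lowest vehicle sample, sample 3. The mean went from 83.2 ± 13.4 to 29.8 ± 5.50 CPM (SD, n = 5 each), a ratio of 0.358. The log2 fold change was -1.48 with a standard error of 0.14 (edgeR, adjusted p = 4.96e-06), and 3.00% of all tested loci had a larger absolute value. It was -1.27 and -1.63 within the libraries with the ribosomal loci at 0 and above 0 (adjusted p = 0.00238 and 0.000181).

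Genes of the interferon response fell in the same samples. Of 12 listed, 9 were lower and 0 higher with JHU083, against 18.3% of all tested loci lower, with a median log2 fold change of -0.53 against 0.01 over all tested loci. Their summed level was 879 to 1113 CPM in vehicle and 565 to 709.5 CPM in JHU083 samples. Cxcl10, a chemokine induced by interferon gamma, had a log2 fold change of -1.79, Isg15, a ubiquitin-like modifier, one of -1.24, and Irf7, a transcription factor of the type I response, one of -0.94. Ifit1, Ifit2 and Ifit3, which encode RNA-binding antiviral proteins, had -0.21, -0.26 and -0.31 and did not pass the test (edgeR, adjusted p = 0.254, 0.174 and 0.111). Whether the lower Ms4a4c level belongs with these was not tested.

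Ms4a4b (XLOC_017537), a T cell protein that associates with the receptor GITR, was near the detection limit with 10 to 35 fragments in a library. Its level was 1.36, 1.30, 2.56, 1.74 and 1.41 CPM in vehicle samples 1 to 5 and 2.18, 1.71, 1.42, 2.68 and 0.655 CPM in JHU083 samples 1 to 5. The groups overlapped, with 1 JHU083 sample (sample 4) above and 1 (sample 5) below the vehicle range. The means were 1.67 ± 0.527 and 1.73 ± 0.767 CPM (SD, n = 5 each), the log2 fold change was 0.04 and its standard error 0.34 (edgeR, adjusted p = 0.936), so a change of moderate size would not have been detectable at this depth. T cell markers were also low: the 14 listed summed to 35.7 to 41.8 CPM in vehicle and 52.2 to 86.7 CPM in JHU083 samples, with 2 higher and 1 lower of 6 tested. Cd4 (means 14.7 and 31.8 CPM) and Il7r (11.5 and 19.96 CPM), the 2 that rose, carried most of that sum, Thy1 fell, and Cd3d, Cd3e and Cd3g had 0 to 15 fragments in a library. The gate asked for CD11b and F4/80 and against CD8, and the part of T cells in the Ms4a4b fragments was not tested.

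Ms4a4b and Ms4a4c are neighbours of one subfamily, and their upstream windows are shown because they are the most alike of all pairs, while the level of Ms4a4c fell and that of Ms4a4b did not pass the test. The Ms4a4c window is chr19:11407411-11407660 and the Ms4a4b window chr19:11443308-11443552, both on the plus strand of GRCm38.p6, and the latter was trimmed to 245 bases where an annotated exon begins.
Ms4a4c: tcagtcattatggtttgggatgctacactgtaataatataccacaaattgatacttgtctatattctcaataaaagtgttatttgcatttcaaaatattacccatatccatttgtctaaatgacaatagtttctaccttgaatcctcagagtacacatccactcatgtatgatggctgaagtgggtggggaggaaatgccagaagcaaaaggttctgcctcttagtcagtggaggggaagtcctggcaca
Ms4a4b: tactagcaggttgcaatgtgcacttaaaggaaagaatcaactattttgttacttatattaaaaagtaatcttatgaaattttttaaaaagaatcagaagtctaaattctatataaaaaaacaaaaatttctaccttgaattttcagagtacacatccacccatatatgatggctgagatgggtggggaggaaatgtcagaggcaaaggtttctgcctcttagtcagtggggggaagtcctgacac
No base is in capitals because neither window held a searched motif, which says only that those letters are not in these windows. Aligned over 250 bases, 192 were identical (76.8%). The Ms4a4c window starts inside the gene as GENCODE M21 draws it, since another annotated transcript begins farther upstream. In their transcripts, 7.73% of the 50-base windows of Ms4a4c are also found in Ms4a4b, so fragments from those stretches could be counted for either gene.

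Ms4a6c (XLOC_017539) rose by a small amount. Its level was 257, 251.6, 259.7, 245 and 255 CPM in vehicle samples 1 to 5 and 316, 296, 325, 286 and 276 CPM in JHU083 samples 1 to 5. The vehicle samples lay very close together and all JHU083 samples lay above them. The mean rose from 254 ± 5.73 to 299.8 ± 20.4 CPM (SD, n = 5 each), a ratio of 1.18, with a log2 fold change of 0.24 and a standard error of 0.06 (edgeR, adjusted p = 0.00979). This call is uncertain. BE692007, a transcript annotated on the opposite strand over 11470166 to 11484578, overlaps Ms4a6c, holds 49.6% of the 50-base transcript windows of Ms4a6c and had 2521 to 3462 fragments in a library, and the labels do not state that strand was kept. BE692007, named here after its values were seen, had a log2 fold change of 0.09 (adjusted p = 0.390), and with both loci summed the value was 0.17 and the call was lost (adjusted p = 0.0578). Within the libraries with the ribosomal loci at 0 and above 0 it was 0.36 and 0.14, and neither passed (adjusted p = 0.0664 and 0.400).

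Ms4a6b (XLOC_017541), a close relative of Ms4a6c, had 245, 218, 222, 225 and 235 CPM in vehicle samples 1 to 5 and 229, 219, 256, 221 and 225 CPM in JHU083 samples 1 to 5. All but 1 JHU083 sample lay inside the vehicle range, and sample 3 lay above it. The means were 229 ± 11.1 and 230.2 ± 15.1 CPM (SD, n = 5 each), with a log2 fold change of 0.01 and a standard error of 0.07 (edgeR, adjusted p = 0.943).

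Ms4a6d (XLOC_018074), the Vsig4 partner, was the most abundant of the 8 in CPM. It had 654, 609, 644, 649.9 and 647 CPM in vehicle samples 1 to 5 and 621, 572, 727, 635 and 684 CPM in JHU083 samples 1 to 5. The groups overlapped, and the JHU083 samples reached both below and above the vehicle range. The means were 641 ± 18.2 and 648 ± 59.7 CPM (SD, n = 5 each), with a log2 fold change of 0.02 and a standard error of 0.07 (edgeR, adjusted p = 0.887). The sign of the Ms4a6b and Ms4a6d values turned under scaling by library size alone, to -0.07 for each, and neither passed the test there.

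The motifs were counted over all 8 upstream windows, which belong to 7 of the genes since Ms4a7 has 2. The interferon-stimulated response element GAAANNGAA, searched on both strands, was in 4 windows, against 7.13% of 32851 RefSeq windows of the same length. The 4 belong to 3 genes, since both Ms4a7 windows held it beside those of Ms4a6b and Ms4a6c. The Ms4a6b and Ms4a6c matches lie in similar 29-base stretches of these related genes, so the 4 windows are not independent. The Ms4a4c window did not hold it. The AP-1 motif TGANTCA was in 2, those of Ms4a14 and the second start of Ms4a7, and in 6.75% of all windows, and the STAT6 motif in 1 and in 5.85%. The PU.1 motif GAGGAAGT (2.44% of all windows), the CRE motif TGACGTCA (1.55%) and the C/EBP motif TTGCGCAA (0.164%) were in 0 of the 8. The windows come from the C57BL/6J reference, while the mice were BALB/cJ, and a match is a description of letters, not of a bound site.

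Differences between members were compared directly, as the log2 ratio of their fragments within each sample. An exact permutation test, two-sided, was run on 7 pairs with Benjamini-Hochberg adjustment over the 7, in which 5 samples against 5 cannot go below 0.0079 unadjusted. The ratio of Ms4a4a to Ms4a4c was 1.96 ± 0.34 in vehicle and 3.96 ± 0.40 in JHU083 samples (SD, n = 5 each), a difference of 2.0 (exact permutation p = 0.00794, adjusted p = 0.0185). The ratio was higher in each JHU083 sample than in every vehicle sample. JHU083 sample 1 was the lowest of its group at 3.25, the others lying between 4.08 and 4.19. The ratio of Ms4a4b to Ms4a4c also differed, by 1.43 (exact permutation p = 0.0159, adjusted p = 0.0222), and that of Ms4a4a to Ms4a4b did not pass, with a difference of 0.57 (exact permutation p = 0.206, adjusted p = 0.241).

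Among the Ms4a6 genes the shifts were small. The ratio of Ms4a6b to Ms4a6c differed by -0.23, with -0.15 ± 0.066 in vehicle and -0.38 ± 0.070 in JHU083 samples (SD, n = 5 each, exact permutation p = 0.00794, adjusted p = 0.0185). The ratio of Ms4a6c to Ms4a6d differed by 0.23 (exact permutation p = 0.0159, adjusted p = 0.0222), with JHU083 sample 1 to 5 values between -1.31 and -0.95 and vehicle values between -1.41 and -1.27. That of Ms4a6b to Ms4a6d differed by -0.01 (exact permutation p = 0.913, adjusted p = 0.913). Both ratios that passed rest on the Ms4a6c locus and share its overlap with BE692007. Ms4a7 rose more than Ms4a6c, with a ratio 0.57 higher in JHU083 samples (exact permutation p = 0.00794, adjusted p = 0.0185). This ratio too rests on the Ms4a6c locus and shares that overlap. Computed on the deposited FPKM, none of the 7 ratios passed after adjustment, the closest being Ms4a4a to Ms4a4c and Ms4a7 to Ms4a6c at an adjusted exact permutation p of 0.0556.

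**Figure D3:**
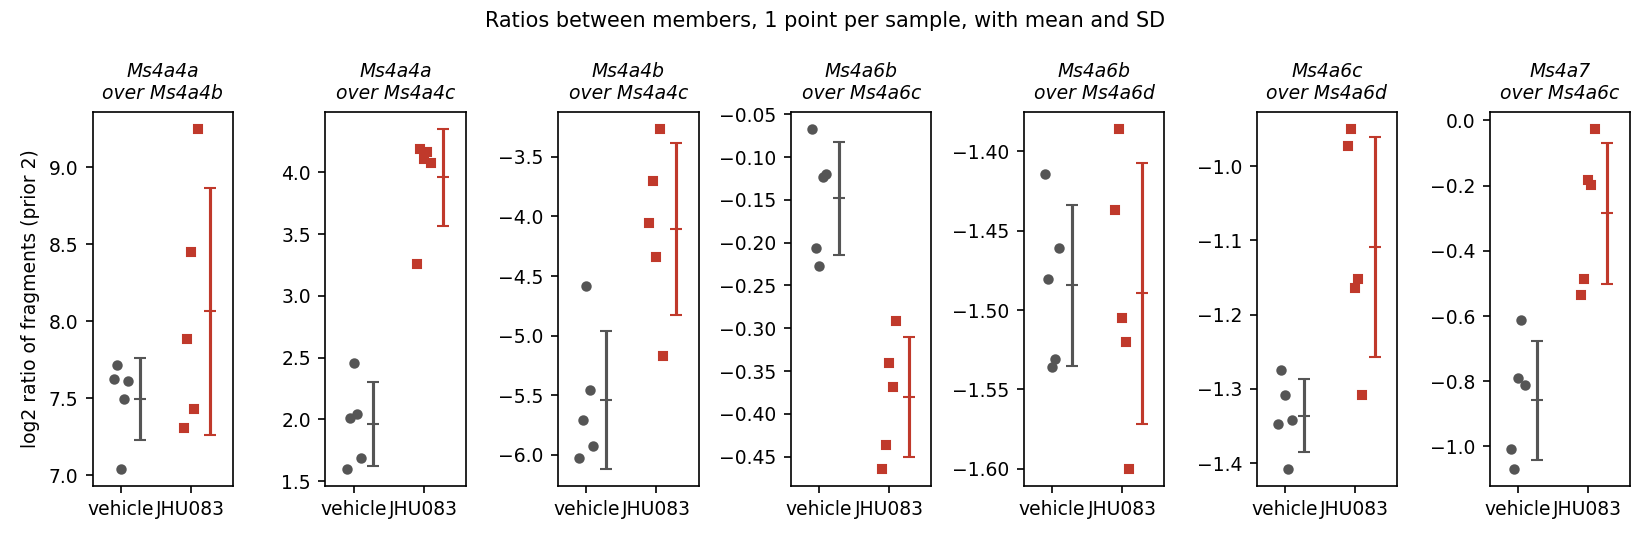
Log2 ratio of the fragments of 2 members in each sample (vertical axes, each with its own range), for 7 pairs, with vehicle samples as grey circles and JHU083 samples as red squares and the mean and SD beside them. The groups do not overlap for Ms4a4a over Ms4a4c, Ms4a6b over Ms4a6c and Ms4a7 over Ms4a6c.

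Levels of different genes were compared on the deposited FPKM, which divides by transcript length. In vehicle samples the order of median FPKM was Ms4a6d (500.0, range 474 to 507), Ms4a4a (453, 435 to 534), Ms4a6c (249, 232 to 262), Ms4a6b (183, 155 to 205), Ms4a7 (146, 121 to 166), Ms4a4c (94.1, 70.8 to 118), Ms4a4b (1.26, 1.21 to 2.30) and Ms4a14 (1.13, 0.933 to 1.61). Ms4a6d and Ms4a4a, Ms4a6b and Ms4a7, and Ms4a4b and Ms4a14 are neighbours whose ranges overlapped. In JHU083 samples the order was Ms4a4a (711, range 551 to 801), Ms4a6d (498, 458 to 560), Ms4a6c (280.4, 258 to 318), Ms4a7 (260.3, 212 to 292), Ms4a6b (189, 182 to 202), Ms4a4c (30.3, 23.1 to 48.6), Ms4a14 (3.17, 2.07 to 4.27) and Ms4a4b (1.97, 0.544 to 3.04). There the ranges of Ms4a4a and Ms4a6d, of Ms4a6c and Ms4a7, and of Ms4a14 and Ms4a4b overlapped. The scaled count per FPKM varied between libraries by 1.40-fold for Ms4a6b, 1.56-fold for Ms4a4c and 1.65-fold for Ms4a4b, against 1.00-fold to 1.12-fold for the other 5, so the FPKM of the former 3 also carries that variation.

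Summed over the 8 genes, FPKM was 1575 to 1714 in vehicle samples, with a median of 1636, and 1814 to 2207 in JHU083 samples, with a median of 1978, and the groups did not overlap. The share of Ms4a4a in this sum was 29.0% ± 1.90 in vehicle and 34.9% ± 2.58 in JHU083 samples (SD, n = 5 each). That of Ms4a7 was 8.69% ± 0.924 and 12.7% ± 0.785, and that of Ms4a4c 5.68% ± 1.15 and 1.77% ± 0.604. The share of Ms4a6d, whose own level did not pass a test, was 30.2% ± 0.730 and 25.8% ± 0.828, since shares of one sum must move against each other. Ms4a14 and Ms4a4b each made up at most 0.235% of the sum in any sample.

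**Figure D4:**
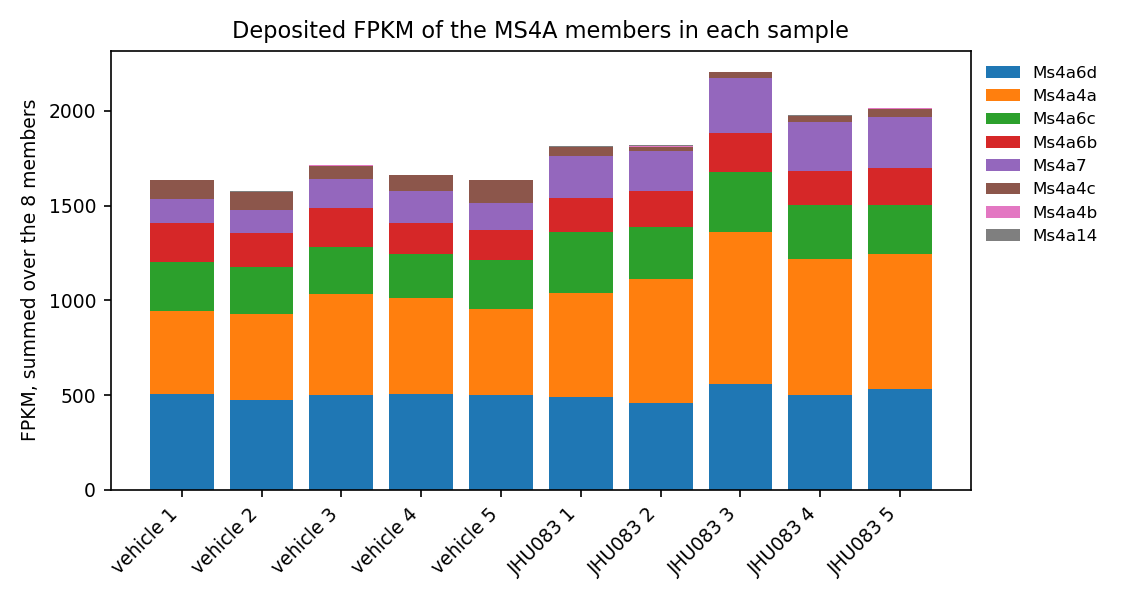
Deposited FPKM (vertical axis, from 0) of the 8 genes stacked in each of the 10 samples. The sums run from 1575 to 1714 in vehicle and from 1814 to 2207 in JHU083 samples, and the Ms4a4a and Ms4a7 segments are taller in JHU083 samples.

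Across the 10 samples, the genes with the most similar log2 CPM among 10120 loci were listed for each member, as a description only, since all points share the libraries and the treatment difference. For Ms4a4a these were Ang with Rnase4 (1 locus of secreted ribonucleases, r = 0.98), Gatm (the creatine synthesis enzyme, 0.96) and Rab7 (a late endosomal GTPase, 0.96), with r = 0.94, 0.86 and 0.83 after group means were removed. For Ms4a4c they were Tap2 (the peptide transporter subunit, r = 0.99), Ifitm3 (a membrane protein against viral entry, 0.99) and the locus of Tapbp and Zbtb22 (Tapbp encodes tapasin, 0.99), with r = 0.95, 0.95 and 0.93 after removal. Their own log2 fold changes were -0.84, -1.48 and -0.59. For Ms4a7 they were Gdpd1, the locus of Tmem38b and n-R5s185, and Slc40a1, the iron exporter ferroportin (r = 0.98 each). For Ms4a14 they were Fam21, Mtmr10 and Npc1, the lysosomal cholesterol transporter (r = 0.99 each). For Ms4a6c they were Plxna4os1 (0.98), Lilra5 (0.96) and Fmnl3 (0.96), for Ms4a6b Pwp1 (0.97), 2510039O18Rik (0.95) and Hyi (0.93), for Ms4a6d Sil1 (0.96), Mrps33 (0.95) and Pf4 (0.93), and for Ms4a4b Il18 (0.79), I830077J02Rik (0.78) and Tagap1 (0.77).

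Among the members themselves, Ms4a4a and Ms4a7 had r = 0.95 over the 10 samples, and r = 0.79 after group means were removed. Ms4a6d and Ms4a7 had r = 0.36, and 0.80 after removal, and Ms4a14 and Ms4a6b had r = -0.30, and -0.81 after removal. Ms4a4a and Ms4a4c had r = -0.90, and -0.51 after removal. Ms4a14 and Ms4a4c had r = -0.95, and -0.71 after removal. Ms4a6b and Ms4a6d, neither of which passed the test between groups, had r = 0.73 both before and after removal.

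Among 17 other MS4A family names, 13 were found in the tables and 3 passed the filter, and all 3 were higher with JHU083, as were 18.4% of all tested loci. Ms4a8a (XLOC_018060), in the proximal part of the cluster, rose from 2.80 ± 0.497 to 5.33 ± 1.23 CPM (SD, n = 5 each), with a log2 fold change of 0.92 and a standard error of 0.19 (edgeR, adjusted p = 0.00224). It had 29 to 97 fragments in a library, and the groups did not overlap. Tmem176a and Tmem176b, related proteins of intracellular membranes encoded as an overlapping pair on chromosome 6, had 0.89 and 0.78 (edgeR, adjusted p = 0.000814 and 0.00112). Tmem176a went from 105.8 ± 11.4 to 196 ± 56.5 CPM and Tmem176b from 239 ± 27.5 to 411 ± 104 CPM (SD, n = 5 each), and 1 JHU083 sample of Tmem176b lay inside the vehicle range. Because the pair overlaps, reads of one could be counted for the other. The Ms4a8a call was lost among the libraries with the ribosomal loci at 0 (0.80, adjusted p = 0.131) and the Tmem176b call among those with them above 0 (0.49, adjusted p = 0.0600), against 1.11 among those with them at 0. Tmem176a had 1.24 and 0.58 in the same sets with the loci at 0 and above 0, and passed in both (adjusted p = 0.00228 and 0.0415).

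The other 10 did not exceed 12 fragments in any library. Ms4a1 had at most 3 fragments and Ms4a2 at most 12, so B cell CD20 and the mast cell IgE receptor chain were at or near the floor. Ms4a3, a granulocyte-monocyte progenitor gene, and Ms4a4d had at most 2, Ms4a12 had at most 1, and Ms4a5, Ms4a10, Ms4a13, Ms4a15 and Ms4a18 were at 0 in every library, which allows up to 0.261 CPM in the shallowest. Ms4a8, Ms4a9, Ms4a19 and Ms4a20 were not matched by symbol. Beside the family genes, the long non-coding RNA AW112010 (11047612 to 11055808, minus strand), named after its values were seen, fell in the same cluster. Its level ran from 74.5 to 101 CPM (median 95.0) in vehicle and from 25.02 to 50.9 CPM (median 41.5) in JHU083 samples, with a log2 fold change of -1.23 and a standard error of 0.15 (edgeR, adjusted p = 4.86e-05).

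Genes of proteins that MS4A proteins have been linked to were taken as a list of 18. Of the 17 tested, 5 were higher and 0 lower with JHU083, with a median log2 fold change of 0.16 against 0.01 over all tested loci and 18.4% of those called higher. Under scaling by library size alone the same list gave 4 higher and 2 lower, where 12.5% of all tested loci were higher and 25.1% lower, since Adam10 lost its call (adjusted p = 0.118) and Card9 (-0.30, adjusted p = 0.0280) and Fcer1g (-0.20, adjusted p = 0.0403) passed as lower. On the dectin-1 side of Ms4a4a, Clec7a, which encodes dectin-1, rose from 454 ± 34.4 to 816 ± 132 CPM (SD, n = 5 each), with a log2 fold change of 0.84 and a standard error of 0.11 (edgeR, adjusted p = 4.81e-05). Syk, the kinase downstream of it, rose from 208 ± 11.7 to 283 ± 16.5 CPM, with 0.45 and a standard error of 0.07 (edgeR, adjusted p = 0.000211). In both genes the groups did not overlap, and the Syk call was lost among the libraries with the ribosomal loci at 0 (0.43, adjusted p = 0.0587). The adaptor Card9 had a log2 fold change of -0.22 and did not pass (edgeR, adjusted p = 0.116), nor did Fcer1g, the common gamma chain, at -0.12 (0.255). Without JHU083 sample 3 Card9 had -0.30 and passed (adjusted p = 0.0217).

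On the TREM2 side, Trem2, the lipid-sensing receptor, rose from 358 ± 43.9 to 563 ± 98.2 CPM (SD, n = 5 each), with a log2 fold change of 0.66 and a standard error of 0.11 (edgeR, adjusted p = 0.000581). Its adaptor Tyrobp had 0.14 (adjusted p = 0.332). Adam10, one of the proteases that release soluble TREM2, had 0.32 (adjusted p = 0.0311), but the call was lost in 8 of 10 fits that left out 1 sample (all but those without vehicle sample 3 or JHU083 sample 3), with adjusted p up to 0.0802. It was also lost within the libraries with the ribosomal loci at 0 and above 0 (0.18 and 0.38, adjusted p = 0.499 and 0.0679). Adam17, the other protease, had 0.23 (adjusted p = 0.0912), and it passed without vehicle sample 3 (0.30, adjusted p = 0.0260) or without JHU083 sample 3 (0.30, adjusted p = 0.0131). Vsig4, the complement receptor linked to Ms4a6d, rose from 1.04 ± 0.351 to 6.22 ± 2.57 CPM (SD, n = 5 each), with 2.56 and a standard error of 0.33 (edgeR, adjusted p = 6.42e-05), from 7 to 128 fragments in a library. It was 2.98 and 2.16 within the libraries with the ribosomal loci at 0 and above 0, and 1.67 with limma on log2(FPKM + 1), and it passed in each (adjusted p at most 0.00912). Nlrp3 had 0.04 (adjusted p = 0.818), Tlr4 0.33 (0.0557, but 0.0150 without vehicle sample 3 and 0.00409 without JHU083 sample 3) and Cd14 0.16 (0.398). H2-Aa, H2-Ab1 and Cd74, of the class II presentation pathway, had 0.12, -0.14 and -0.01, Kit 0.23 and Tnfrsf18, which encodes GITR, -0.47, and none of these 5 passed.

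Marker lists of other cells and of macrophage states were read beside the members, to be set against the 18.4% of all tested loci that were higher and the 18.3% that were lower. The resident-like macrophage list had 5 of 12 higher and 1 lower, with summed levels of 2937 to 4791 CPM in vehicle and 4615 to 6500.4 CPM in JHU083 samples. Mrc1 (means 1428 and 2446 CPM in vehicle and JHU083) and Stab1 (1060 and 1458 CPM) carried most of this sum. Mrc1, Stab1, Gas6, Cbr2 and the scarce Vsig4 rose and F13a1 fell, while Cd163, Lyve1, Folr2, Pf4, Timd4 and Cd209f did not pass. The monocyte list had 3 of 12 tested genes higher and 3 lower, with sums of 1331 to 1375 CPM and 1528 to 2195 CPM. Nr4a1, Cx3cr1 and Ccr2 carried most of that sum (means 606, 335 and 332 CPM in vehicle). Those that rose were Nr4a1, Cx3cr1 and the scarce Chil3 (log2 fold changes 0.53, 0.69 and 2.08), and those that fell were the scarce Ly6c1, Ace and Vcan (-2.54, -2.56 and -1.06). B cell markers had 2 of 4 higher and 1 lower (70.4 to 93.0 CPM and 86.4 to 104 CPM), mast cell and basophil markers 2 of 6 higher and 1 lower (26.0 to 28.9 CPM and 22.6 to 40.2 CPM). Dendritic cell markers had 1 of 6 higher (12.0 to 17.0 CPM and 15.5 to 31.4 CPM), eosinophil markers 1 of 3 higher (3.68 to 10.6 CPM and 6.64 to 17.4 CPM), and the 1 tested NK cell marker did not pass (12.1 to 15.9 CPM and 7.68 to 12.5 CPM), with Klra4 at 0 throughout. Of the neutrophil markers 1 of 6 was higher and 3 were lower, and 6 of 6 tumour epithelial markers were lower. The part of these lists in the changes of the members was not tested.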

How the data were processed

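RNA-seq tables of 10 samples, 5 per group, were analysed. Per the submitters' processing notes, bcl2fastq 2.17.1.14, FastQC 0.11.2 and TopHat2 2.1.1 were used with GRCm38; the counting program, annotation and strand setting are not given in the sources used here. Per the labels' protocols, poly(A) RNA was made into libraries with the NEBNext Ultra kit. The authors deposited, per the file headers, raw counts that are not whole numbers and were therefore handled under the unit of expected counts. In each sample 99.1% to 99.4% of the values were whole multiples (tolerance 0.02) of a step of 0.888 to 1.17, and dividing by it gave the fragment counts, which were rounded. The authors deposited a further column that is FPKM by its values, used for levels between genes.

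Fragments were tested with edgeR 4.0.16 in R 4.3.3 (filterByExpr, TMM, quasi-likelihood F-test, no covariate, Benjamini-Hochberg over 12501 loci, threshold 0.05). CPM uses TMM-scaled totals, and log2 CPM and log2 ratios a prior of 2 fragments. The standard error is the fold change divided by the square root of F. The locus without a symbol held 0.00169% of the fragments. The code was tested on simulated data. With 200 of 12501 loci changed by 1 on the log2 scale, edgeR recovered 83% and 2.92% of its calls were false. DESeq2 recovered 87%, and 12.56% of its calls were false. Alternatives used DESeq2 1.42.0 and limma 3.58.1. Ratios, motifs and correlations were computed in Python 3.11.15 with scipy 1.17.1. Promoter windows are RefSeq's (GRCm38.p6; 7 of 8 genes matched). The share of 50-base windows common to 2 genes was computed on GENCODE M21 transcripts.

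Genes were named by rule: the 8 members, other MS4A names, a list of 18 partner genes, marker lists, and the 3 loci most like each member at an average log2 CPM of at least 2. Members and lists were chosen with earlier results of these data known. The labels number samples 1 to 5 in both groups without saying that mice were paired. Most marker genes enter only as counts and sums, and some results are not reported here.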

Additional observations from a re-analysis of the deposited data

Results flagged for a closer look

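In groups of 5 samples, a sample was picked out where its gap to the nearest other sample, divided by the range of the group, exceeded 0.71, a level that chance passes in about 1 in 20 groups. Of 70 groups examined, 4 had such a sample, and chance gives about 3.5. Ms4a6d was lowest in vehicle sample 2, at a log2 CPM of 9.25 against 9.33 to 9.35 in the other vehicle samples. Trem2 was highest in JHU083 sample 3, at 9.53 against 8.99 to 9.04. Adam10 was lowest in the same sample, at 7.52 against 7.98 to 8.07. The log2 ratio of Ms4a4a to Ms4a4c was lowest in JHU083 sample 1, at 3.25 against 4.08 to 4.19, and that sample also had the highest Ms4a4c level and the lowest Ms4a4a level of its group.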

How the results depend on the processing

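Ms4a4c, Ms4a7 and Ms4a14 kept their direction and passed the threshold under all 26 alternatives, with log2 fold changes of -1.66 to -1.27, 0.73 to 0.87 and 0.94 to 1.67. Ms4a4a (0.44 to 0.60) passed in 25 of 26. It lost its call only among the 5 samples with the ribosomal loci at 0, at 0.52 (range of adjusted p over its alternatives 9.23e-06 to 0.0835). The Ms4a6c call was lost with library-size scaling (0.16), limma on log2(FPKM + 1) or log2(FPKM + 0.1) (0.21 each), the samples with the ribosomal loci at 0 (0.36) or above 0 (0.14), and BE692007 added (0.17). Its adjusted p ranged from 0.000862 to 0.40.

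The 3 genes that did not pass changed sign at small values and passed nowhere. Ms4a4b turned to -0.064 with limma-voom, -0.054 with quality weights, -0.037 with library-size scaling, -0.24 in samples with the ribosomal loci above 0 and -0.015 without JHU083 samples 1 and 3, and leaving out 1 sample gave -0.16 to 0.26. Ms4a6b turned to -0.014 with quality weights, -0.074 with library-size scaling, -0.084 in samples with the loci above 0 and -0.052 without JHU083 samples 1 and 3 (leaving out 1 sample: -0.032 to 0.033). Ms4a6d turned to -0.067, -0.052 and -0.030 under the last 3 of these (leaving out 1 sample: -0.027 to 0.058). Among partner genes that did not pass, Kit turned to -0.27 and -0.42 on log2(FPKM + 1) and log2(FPKM + 0.1) (leaving out 1 sample: -0.039 to 0.38). Nlrp3 turned to -0.040 with library-size scaling, -0.11 with the loci above 0 and -0.099 without JHU083 samples 1 and 3 (leaving out 1 sample: -0.098 to 0.12). Tlr4 passed with DESeq2 (adjusted p = 0.0497) and 5 other settings, and Card9 and Adam17 passed with quality weights (0.0257 and 0.0110) and without JHU083 samples 1 and 3 (0.0427 and 0.0453). Adam10, which passed, lost its call with library-size scaling (0.118), both FPKM fits (0.0633 and 0.0628) and the replicate block (0.0909). Under the last 2 settings named for Nlrp3, Tyrobp turned to -0.018 and -0.039 and Cd14 to -0.012 and -0.015. Cd74 turned to 0.085 with the loci at 0 (leaving out 1 sample: -0.083 to 0.045). Ratios of deposited FPKM gave 1.99 for Ms4a4a to Ms4a4c, 1.69 for Ms4a4b to Ms4a4c, -0.15 for Ms4a6b to Ms4a6c, 0.18 for Ms4a6c to Ms4a6d, 0.60 for Ms4a7 to Ms4a6c and 0.034 for Ms4a6b to Ms4a6d (leaving out 1 sample from counts: -0.031 to 0.023), and none passed. The cause was not tested. Over all loci, 2296 were higher and 2293 lower. Library-size scaling gave 1564 and 3141, the samples with the ribosomal loci at 0 gave 532 and 586, those with them above 0 gave 1274 and 1545, and leaving out 1 sample gave 1823 to 2895 and 1899 to 2929. The smaller sets hold fewer samples.

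Same-numbered samples did not deviate together (correlations -0.61 to -0.18 over the 1000 most variable loci, with 0 samples closest to their own number). These correlations cannot exclude a pairing by number. The vehicle and JHU083 samples of each number differed in whether the ribosomal loci were at 0, and the part of this was not tested. A block for the replicate number gave 1612 higher and 1757 lower loci, Ms4a4b turned to -0.00107, and the calls of the other 7 members stayed as reported. The 5 ratios that passed had the same differences in the blocked permutation (2.0, 1.43, -0.23, 0.23 and 0.57), which cannot go below 0.0625 and gave an adjusted p of 0.0875. Summing BE692007, using only loci with 1 symbol and leaving out JHU083 samples 1 and 3 were chosen after seeing the data. Depth limits Ms4a4b, at 10 to 35 fragments, and Ms4a14, at 56 to 270. An unstated strand setting limits Ms4a6c, and the reference is C57BL/6J while the mice were BALB/cJ.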
